A study of Mus musculus with 6 samples.

Results

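The Hedgehog ligands Shh and Ihh, their receptor Ptch1, the decoy receptor Hhip, the transducer Smo, its partner Sufu and the transcription factors Gli1, Gli2 and Gli3 were read by gene name from a table of estimated counts. All 9 were found among the 23594 genes in the table, and all 9 passed the expression filter that left 20114 genes for testing. Control libraries came from wild type C57BL/6 mice, and Lhx6-/- libraries from littermates homozygous for an Lhx6-CreER knock-in that removes the function of Lhx6, a LIM homeodomain transcription factor. The knock-in is carried by every cell of the animal, so Lhx6 was lost in all tissues and from the start of development. Tissue at the apex of the furcation, where the roots of the mandibular first molar divide, was laser-captured from 12 µm sections at PN4.5. Each of the 3 Control and 3 Lhx6-/- libraries pooled the captured tissue of 8 molars. The sex make-up of the pools is not given in the sources used here, and both sexes were collected. Xist and genes of the Y chromosome, given below, were at different levels in the groups.

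Hedgehog ligands are secreted proteins that bind Ptch1 on a receiving cell. Ligand binding frees Smo from inhibition by Ptch1, Smo then acts at the primary cilium to release Gli factors from Sufu, and Gli factors enter the nucleus. Gli1 and Gli2 act mainly as activators and Gli3 mainly as a repressor when the pathway is quiet. Gli1, Ptch1 and Hhip are themselves induced by the pathway, and the induced Ptch1 and Hhip proteins bind ligand and restrain it. In teeth Shh is made by the dental epithelium, and Gli1 marks mesenchymal progenitor cells of the growing root.

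Library totals ran from 60132323 to 76157433 estimated counts. Levels are given as counts per 1000000 (CPM) after TMM scaling, a correction for library composition, and differences as log2 fold changes, Lhx6-/- minus control, from edgeR's quasi-likelihood test. Adjusted p-values are Benjamini-Hochberg values over all tested genes. The fold and p rule asks for a difference of 1.5-fold or more together with an unadjusted p under 0.05. The Lhx6 transcript averaged 22.6 ± 4.83 CPM (SD, n = 3) in control and 11.0 ± 1.57 CPM in Lhx6-/- tissue, with no overlap between groups (log2 fold change -1.04, SE 0.16, edgeR adjusted p = 0.021). From gene totals the remaining part of the Lhx6 transcript cannot be told. The captured tissue was mixed: enamel genes of ameloblasts summed to between 114978.2 and 146335.3 CPM, odontoblast markers to between 5285.6 and 7098.8 CPM, and dental mesenchyme markers to between 526.4 and 618.9 CPM. In such bulk tissue, fewer cells of a type and less RNA in each cell cannot be told apart.

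None of the 9 Hedgehog genes met the fold and p rule, which 3.28% of all tested genes met. None had an adjusted p under 0.05, which 0.403% of all tested genes had. Hhip, Gli3 and Ptch1 were the 3 members with an unadjusted p under 0.05, all of them higher in the Lhx6-/- libraries, as were 4.75% of all tested genes at that p. The same 3 were the members whose Lhx6-/- libraries all lay above all control libraries, as was so for 7.86% of all tested genes. Of the 9, 7 had a fitted value above 0 and 2 below, with a median log2 fold change of 0.17 against -0.002 over all tested genes. With upper-quartile or total-count scaling 8 were above 0, Sufu being the gene that changed sign. The 95% interval of the fold change lay inside 1.5-fold in either direction for 7 of the 9. For Shh and Ihh it included no change and reached past 1.5-fold both ways. A single gene in 3 libraries against 3 cannot reach an exact permutation p below 0.1, which is why the edgeR fit over all genes was used.

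**Figure D1:**
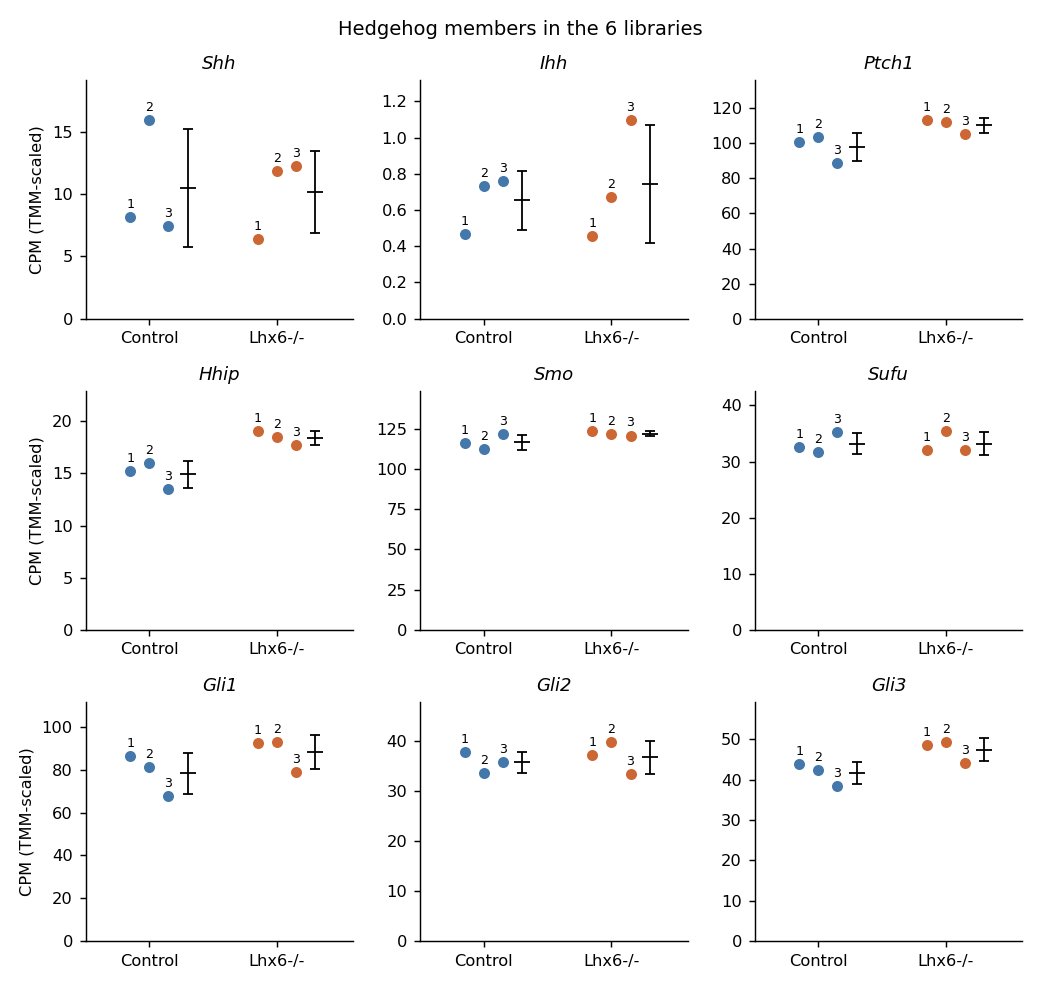
Each panel plots 1 Hedgehog gene, with TMM-scaled CPM on the vertical axis from 0, points for the 3 Control and 3 Lhx6-/- libraries numbered by replicate, and the mean with SD beside them. The groups are separate for Ptch1, Hhip and Gli3 and overlap for the other 6 genes, and Shh is spread from 6.42 to 16.0 CPM.

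Shh, the Hedgehog ligand of the dental epithelium, lies on chromosome 5 from 28456815 to 28467256 (mm10, minus strand). Its level was 8.19, 16.0 and 7.41 CPM in Control 1, 2 and 3, and 6.42, 11.9 and 12.3 CPM in Lhx6-/- 1, 2 and 3. Control 2 was the highest library and Lhx6-/- 1 the lowest, and the groups overlapped over most of their range. Means were 10.5 ± 4.72 CPM (SD, n = 3) and 10.2 ± 3.28 CPM (SD, n = 3), a fold of 0.97 with a 95% interval from 0.51 to 1.84 (edgeR adjusted p = 0.988). The interval therefore holds changes larger than 1.5-fold both ways, and a difference in Shh of that size was not detectable in these libraries. Each library held between 392 and 1066 Shh counts. The spread came to 44.9% of the mean in control and 32.2% in Lhx6-/- libraries, against 1.27% to 12.2% for the 7 members other than the ligands. Its cause was not tested.

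The 11 listed markers of the dental epithelium, the tissue that makes Shh, were lower in the Lhx6-/- libraries. All 11 epithelial marker genes had fitted values below 0, 5 of them met the rule (among them Krt14, Krt5, Krt17 and Dsp), none had an adjusted p under 0.05 by edgeR, and their median log2 fold change was -0.62. Their summed level was 1342.7, 2126.5 and 1454.9 CPM in the control libraries and 969.2, 1062.5 and 1140.8 CPM in the Lhx6-/- libraries. Ameloblasts are also dental epithelium, and their 7 enamel genes showed no such drop as a set. Of these 7, 6 were below 0 and 1 above, with a median of -0.09 and 1 adjusted p under 0.05 by edgeR. The lowest and the highest enamel gene sum, 114978.2 and 146335.3 CPM, were both in Lhx6-/- libraries. Control 2 was highest in Shh and in the epithelial sum, whereas Lhx6-/- 2 and 3 held more Shh than Control 1 and 3 with a lower epithelial sum. Per 1000 CPM of epithelial markers, a ratio chosen after seeing the data and given without a test, Shh stood at 6.1, 7.5 and 5.09 in control and at 6.62, 11.2 and 10.8 in Lhx6-/- libraries.

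**Figure D2:**
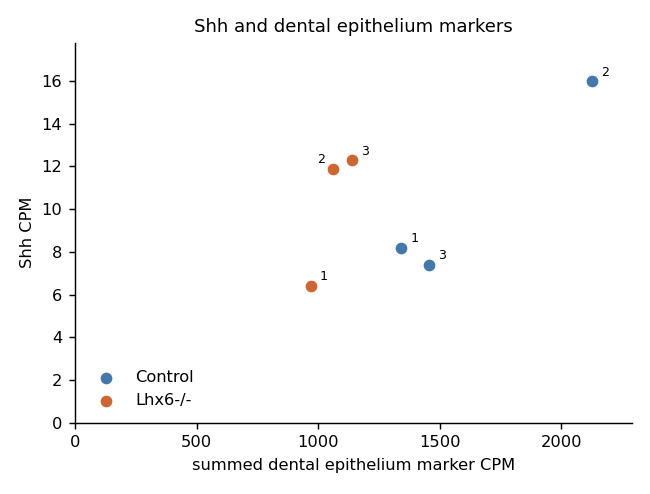
Shh CPM is plotted against the summed CPM of 11 dental epithelium markers, both axes from 0, with 1 point for each of the 6 libraries, numbered by replicate. The Lhx6-/- points lie to the left, at 969.2 to 1140.8 CPM of markers, without lying lower as a group.

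The fitted Shh difference depended on which covariate was in the fit. The epithelial level, the mean of log2(CPM + 1) over the epithelial markers, was 5.809, 6.466 and 5.914 in Control 1, 2 and 3. In Lhx6-/- 1, 2 and 3 it was 5.41, 5.632 and 5.631, below every control. A covariate that follows genotype so closely cannot be cleanly separated from it in 6 libraries. With the epithelial level as a covariate the Shh log2 fold change was 0.96 (edgeR unadjusted p = 0.00142, adjusted p = 0.188). Shh alone among the members met the fold and p rule in that fit, which 769 of all genes met, against 660 without a covariate. When the mean level of 4 genes of the Y chromosome was the covariate, an alternative added once the data had been seen, the value was -1.11 (edgeR adjusted p = 0.0296), which is the opposite direction. In that fit 347 of all genes had an adjusted p under 0.05 and 1243 met the rule, against 81 and 660 without a covariate. The Y-linked level, the mean of log2(CPM + 1) over these genes, was 2.22, 3.82 and 2.14 in Control 1, 2 and 3. In Lhx6-/- 1, 2 and 3 it was 3.8, 4.49 and 4.46, a range that only Control 2 reached among the controls. Xist, a transcript of the inactive X chromosome of females, was at 792.0, 411.0 and 627.8 CPM in Control 1, 2 and 3. Its level was 289.7, 0.228 and 0.0537 CPM in Lhx6-/- 1, 2 and 3. The sex make-up of the pools thus differed between the genotypes, and sex and genotype cannot be fully told apart. The 3 libraries with the most Shh were among the 4 with the highest Y-linked level, a set that held all 3 Lhx6-/- libraries and Control 2. Neither the part of the epithelium nor that of the Y-linked level in the Shh values was tested beyond these fits. Across the 16 alternatives other than the Y-linked covariate, the Shh value ran from -0.24 to 0.96 with no adjusted p under 0.05, and without Control 2 it was 0.39.

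Ihh, the ligand of growth plate cartilage, lies on chromosome 1 from 74945315 to 74951672 (minus strand). It was barely detected, at 0.466, 0.733 and 0.761 CPM in control and 0.458, 0.671 and 1.1 CPM in Lhx6-/- libraries, or 28 to 82 counts a library. The groups overlapped, with the lowest library of each at nearly the same level. Its fold of 1.14 had an interval from 0.568 to 2.29 (edgeR adjusted p = 0.949). Per length of transcript, Shh exceeded Ihh in every library, by 17.5 ± 6.54 times in control and 15.3 ± 3.48 times in Lhx6-/- tissue (SD, n = 3 each).

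Ptch1, the receptor that is both the brake on Smo and a target of the Gli factors, lies on chromosome 13 from 63508328 to 63573598 (minus strand). It was at 100.7, 103.9 and 88.9 CPM in Control 1, 2 and 3, and at 113.6, 112.1 and 105.6 CPM in Lhx6-/- 1, 2 and 3. The groups were separate, with a narrow margin between Control 2 and Lhx6-/- 3. Means of 97.8 ± 7.89 and 110.4 ± 4.28 CPM (SD, n = 3 each) gave a log2 fold change of 0.17 (SE 0.08, edgeR unadjusted p = 0.0384, adjusted p = 0.479), or 1.13-fold with an interval from 1.01 to 1.26.

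Hhip, which binds Hedgehog ligands at the cell surface without signalling, lies on chromosome 8 from 79965851 to 80058006 (minus strand). Its levels were 15.2, 16.0 and 13.5 CPM in the control libraries and 19.1, 18.5 and 17.7 CPM in the Lhx6-/- libraries. The gap between the groups was wider than the spread within the Lhx6-/- group but narrower than that within the control group. Hhip had the highest fitted value of the 9, with means of 14.9 ± 1.29 and 18.4 ± 0.667 CPM (SD, n = 3 each) and a log2 fold change of 0.31 (SE 0.10, edgeR unadjusted p = 0.00976, adjusted p = 0.299). The fold was 1.24 with a 95% interval from 1.06 to 1.44, so the upper bound stayed under 1.5-fold. The unadjusted p of Hhip remained under 0.05 in all 16 alternatives other than the Y-linked covariate, where the log2 fold change was between 0.24 and 0.39, and the adjusted p was 0.206 or more in each. With the Y-linked level as a covariate it was 0.21 (edgeR unadjusted p = 0.215).

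Because Ptch1 and Hhip are induced by Gli factors, the 250 bases before the start of each are shown, from RefSeq windows on GRCm38.p6, 5′ to 3′ on the strand of the gene. Capitals mark the stretches nearest to the Gli motif GACCACCCA on either strand, where neighbouring stretches can run together. The Ptch1 window is chr13:63565736-63565985 (minus strand), inside the span of the longest annotated transcripts, and the Hhip window is chr8:80058009-80058258 (minus strand), just before the annotated gene.
Ptch1: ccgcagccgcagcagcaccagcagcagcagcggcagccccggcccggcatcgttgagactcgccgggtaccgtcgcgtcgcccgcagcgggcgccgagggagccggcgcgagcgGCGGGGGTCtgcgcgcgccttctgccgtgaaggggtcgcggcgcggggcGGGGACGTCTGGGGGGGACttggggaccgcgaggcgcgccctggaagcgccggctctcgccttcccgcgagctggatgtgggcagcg
Hhip: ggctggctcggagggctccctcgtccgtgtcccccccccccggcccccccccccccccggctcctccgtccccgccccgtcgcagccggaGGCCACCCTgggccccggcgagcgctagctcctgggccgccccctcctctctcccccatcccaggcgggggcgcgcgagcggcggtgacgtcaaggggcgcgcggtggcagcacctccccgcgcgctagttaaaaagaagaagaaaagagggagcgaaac

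Neither sequence holds the 9-letter motif or its 8-letter core GACCACCC on either strand, and sequence farther from the start was not searched. The nearest stretches differ from the motif at 3 letters in Ptch1 and at 2 letters in Hhip, and 99.4% and 58.3% of all 32851 RefSeq windows of 300 bases, which include 50 bases past the start, hold a stretch at least that near. The exact motif was in 0.253% of those windows, and in none of those of the 48 Hedgehog genes that had a window, members and other pathway genes together. Windows were given for 7 of the 9 members, Shh and Gli1 being the others. Both printed sequences were rich in G and C, at 78.4% for Ptch1 and 76.0% for Hhip against a median of 52.4% over all windows.

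Smo, the membrane protein that passes the signal on once Ptch1 is bound, lies on chromosome 6 from 29735503 to 29761365 (plus strand). It was the most even of the members, at 116.2, 112.4 and 121.8 CPM in control and 124.0, 121.7 and 121.0 CPM in Lhx6-/- libraries. Control 3 lay within the Lhx6-/- range, so the groups overlapped. The log2 fold change was 0.07 (SE 0.06, edgeR adjusted p = 0.829), and the interval of the fold, 0.949 to 1.15, lay within 1.5-fold. Per length, the ratio of Ptch1 to Smo within a library was 0.333 ± 0.0396 in control and 0.358 ± 0.0106 in Lhx6-/- tissue (SD, n = 3 each).

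Sufu, which holds Gli factors in the cytoplasm, lies on chromosome 19 from 46396896 to 46488804 (plus strand). The libraries held 32.6, 31.7 and 35.3 CPM in control and 32.0, 35.5 and 32.0 CPM in Lhx6-/- tissue. Both groups covered nearly the same range. The log2 fold change was -0.002 (SE 0.08, edgeR adjusted p = 0.996), with a fold between 0.883 and 1.13.

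Gli1, the activator that serves as a readout of the pathway and marks root progenitors, lies on chromosome 10 from 127329882 to 127341974 (minus strand). It stood at 86.3, 81.3 and 67.8 CPM in Control 1, 2 and 3 and at 92.5, 93.1 and 79.1 CPM in Lhx6-/- 1, 2 and 3. Lhx6-/- 1 and 2 were above all controls, while Lhx6-/- 3 was below Control 1 and 2. Means were 78.5 ± 9.58 and 88.2 ± 7.92 CPM (SD, n = 3 each), with a log2 fold change of 0.17 (SE 0.10, edgeR unadjusted p = 0.108, adjusted p = 0.64). The 95% interval of the fold ran from 0.971 to 1.3, within 1.5-fold.

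Gli2, the main activator at the first response to ligand, lies on chromosome 1 from 118834132 to 119053619 (minus strand). Its level was 37.8, 33.5 and 35.8 CPM in control and 37.2, 39.8 and 33.3 CPM in Lhx6-/- libraries, so that the Lhx6-/- group held both the highest and the lowest library. The log2 fold change was 0.04 (SE 0.09, edgeR adjusted p = 0.937).

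Gli3, the main repressor form of the family, lies on chromosome 13 from 15463235 to 15730026 (plus strand). It was at 43.8, 42.4 and 38.4 CPM in control and at 48.5, 49.4 and 44.1 CPM in Lhx6-/- libraries. The groups were separate, though Lhx6-/- 3 lay only just above Control 1. The log2 fold change was 0.19 (SE 0.08, edgeR unadjusted p = 0.0366, adjusted p = 0.474), or 1.14-fold with an interval from 1.01 to 1.29. Gli1 and Gli3 had fitted values of like size, and the ratio of Gli1 to Gli3 per length was 3.62 ± 0.206 in control and 3.57 ± 0.114 in Lhx6-/- tissue (SD, n = 3 each). Gli1 to Gli2 was 3.03 ± 0.378 and 3.3 ± 0.108, with overlapping libraries.

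Control 3 was the lowest control library for Shh, Ptch1, Gli1, Gli3 and Hhip, and Lhx6-/- 3 was the lowest Lhx6-/- library for Ptch1, Smo, Gli1, Gli2, Gli3 and Hhip. Without Control 3 the log2 fold changes were 0.24 for Hhip, 0.14 for Gli3, 0.11 for Ptch1 and 0.07 for Gli1, and Hhip was the only member with an unadjusted p under 0.05. Hhip was also the only such member without Lhx6-/- 1 and without Lhx6-/- 2. Gli1 joined Hhip, Gli3 and Ptch1 under 0.05 without Control 1 (edgeR unadjusted p = 0.0357), without Lhx6-/- 3 (0.032) and with the replicate number as a block (0.0402). Gli3 was above 0.05 with the epithelial covariate (edgeR unadjusted p = 0.122), and both Gli3 (0.203) and Ptch1 (0.437) were above it with the Y-linked one. Markers of the mesenchyme had values in the same direction as these members: 8 of 9 dental mesenchyme markers had fitted values above 0, with a median of 0.19 and summed levels of 526.4 to 576.1 CPM in control and 595.0 to 618.9 CPM in Lhx6-/- libraries, although none met the rule. All 8 endothelial markers were also above 0 (median 0.22, 1 meeting the rule), with sums of 345.0 to 365.6 CPM and 392.8 to 458.2 CPM. The part of these cell types in the Hhip, Gli3 and Ptch1 values was not tested.

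Per kilobase of merged exon, the scale on which genes of different length can be compared, Smo was the highest member and Ihh the lowest. Over the 6 libraries Smo averaged 21.3 CPM per kilobase, Gli1 16.7 and Ptch1 7.34, and the libraries of these 3 did not overlap each other. Gli2 (5.27), Gli3 (4.64), Sufu (4.31) and Shh (3.64) followed, and each overlapped the next in its range over libraries. Within each of the 6 libraries Gli2 was above Gli3 and Sufu, while the order of these genes otherwise changed between libraries. Hhip averaged 1.83 and Ihh 0.229 CPM per kilobase, each below the lowest library of the gene before it. Shh was lower per length than Ptch1, Smo and Gli1 in every library.

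**Figure D3:**
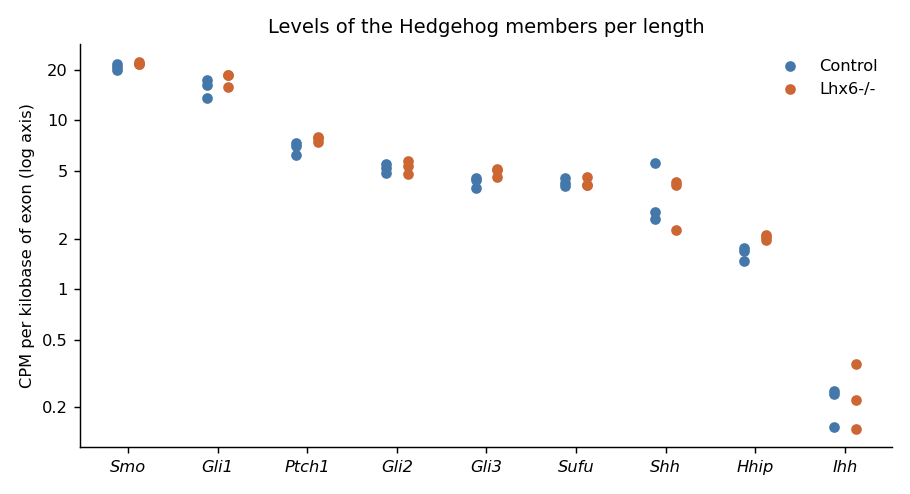
The 9 Hedgehog genes are placed from highest to lowest mean, with CPM per kilobase of merged exon on a log axis and 1 point for each Control and Lhx6-/- library. Smo, Gli1 and Ptch1 stand apart at the top, Gli2, Gli3, Sufu and Shh overlap in the middle, and Ihh reaches at most 0.361.

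Other genes of the pathway were taken from 3 lists of 61 genes, of which 59 were tested, 38 with values above 0 and 21 below. Of the 15 tested genes of ligand release and reception, 11 were above 0 and 4 below, with a median of 0.05. None met the rule, against 3.28% of all tested genes, and 3 had all Lhx6-/- libraries above all controls, against 7.86% of all tested genes. Scube1, a secreted glycoprotein of the family that carries Hedgehog ligand off the producing cell, had the smallest p, at 21.2, 18.0 and 17.9 CPM in control and 26.7, 25.5 and 21.6 CPM in Lhx6-/- libraries. Its groups did not overlap, though Lhx6-/- 3 was close to Control 1 (log2 fold change 0.37, edgeR unadjusted p = 0.0047, adjusted p = 0.242). The co-receptor Boc (0.12), the ligand exporter Disp1 (0.10) and the glypican Gpc3 (0.10) had edgeR adjusted p-values of 0.716 or more.

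Dhh, the ligand of Schwann cells, was measured at 1.67, 2.83 and 2.15 CPM in control and 2.67, 1.66 and 3.96 CPM in Lhx6-/- libraries. The groups overlapped (log2 fold change 0.32, edgeR adjusted p = 0.832). The 9 Schwann cell and nerve markers summed to 191.6, 536.0 and 369.1 CPM in control and 433.6, 211.1 and 521.7 CPM in Lhx6-/- libraries, and the 2 libraries with the lowest sum, Control 1 and Lhx6-/- 2, were also the lowest in Dhh. The part of these cells in the Dhh values was not tested. The annotated gene Rhebl1 overlaps Dhh on the same strand, so Dhh counts are uncertain.

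Of the 27 tested genes that act inside the cell or at the cilium, 14 were above 0 and 13 below, with a median of 0.01. None met the rule, against 3.28% of all tested genes. All Lhx6-/- libraries lay above all controls for 2 of the 27, Gpr161 and Iqce, and for 7.86% of all tested genes. Gpr161, a ciliary receptor that keeps the pathway off, was at 16.7, 15.1 and 13.1 CPM in control and at 18.0, 18.4 and 18.2 CPM in Lhx6-/- libraries, without overlap (log2 fold change 0.28, edgeR unadjusted p = 0.0212, adjusted p = 0.392). Evc (0.16) and Iqce (0.14), of the complex that binds Smo at the cilium base, the ubiquitin ligase scaffold Cul3 (0.11), the kinase Grk2 (-0.12) and the ciliary trafficking protein Tulp3 (-0.10) had adjusted p-values of 0.646 or more.

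Of the 3 lists, that of pathway targets other than the members gave the only calls. Of 18 tested, 13 were above 0 and 5 below with a median of 0.14, 3 met the rule, 2 of these with an adjusted p under 0.05, and 7 had all Lhx6-/- libraries above all controls. Over all tested genes these shares were 3.28%, 0.403% and 7.86%. The list was written with earlier results of these data known, so its count is not independent evidence, and several of its genes also answer to other pathways. Osr2, a zinc finger factor of the dental and palatal mesenchyme, was at 18.6, 16.8 and 17.1 CPM in control and 38.6, 34.8 and 28.8 CPM in Lhx6-/- libraries. Each Lhx6-/- library held clearly more than any control, and Osr2 rose by 0.96 on the log2 scale (SE 0.11, edgeR adjusted p = 0.00484), or 1.95-fold with an interval from 1.65 to 2.3.

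Foxd2, a forkhead factor of cranial mesenchyme, was at 2.1, 1.53 and 1.2 CPM in control and 6.02, 6.02 and 4.31 CPM in Lhx6-/- libraries. The lowest Lhx6-/- library was still above the highest control by more than the whole control range. Foxd2 rose by 1.76 on the log2 scale (SE 0.25, edgeR adjusted p = 0.011), or 3.38-fold with an interval from 2.32 to 4.91. With the epithelial covariate the Osr2 and Foxd2 values were 0.80 and 1.54 with adjusted p-values of 0.104 and 0.179. For Foxd2, the adjusted p was also above 0.05 without Control 3 (0.0812), Lhx6-/- 1 (0.0709) or Lhx6-/- 2 (0.0898), at values of 1.59 to 1.68.

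Foxl1, a mesenchymal forkhead factor, was at 0.659, 0.374 and 0.761 CPM in control and 1.37, 1.37 and 1.4 CPM in Lhx6-/- libraries. The groups were separate, but each library held only 25 to 104 counts, and the log2 fold change of 1.21 (SE 0.37) met the fold and p rule with an edgeR adjusted p of 0.273. With the epithelial covariate the value was 0.63 (edgeR unadjusted p = 0.283) and no longer met the rule. Foxc2, its neighbour on chromosome 8, had a log2 fold change of 0.57 (SE 0.14, edgeR adjusted p = 0.148). Foxl1 and Foxc2 both lie within Gm20388 on the same strand, a longer annotated gene that averaged 61.8 CPM with a log2 fold change of -0.09, so their counts are uncertain. The survival gene Bcl2 (0.40, edgeR adjusted p = 0.169) and Foxq1 (0.37, adjusted p = 0.41) also had groups that did not overlap.

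**Figure D4:**
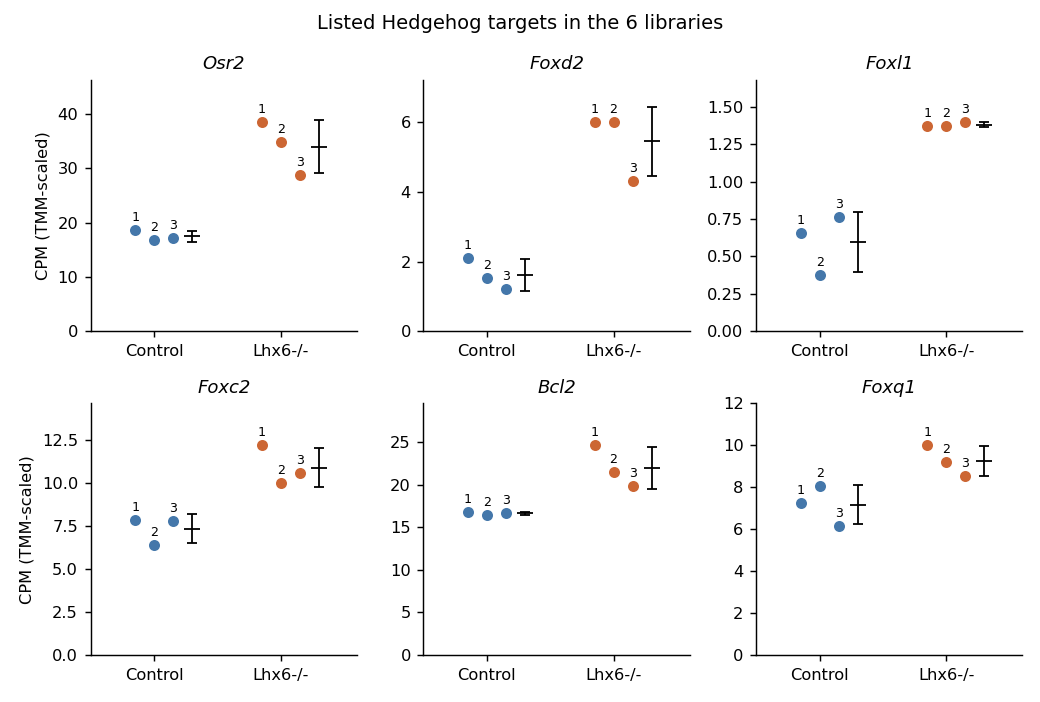
Each panel plots 1 listed Hedgehog target, with TMM-scaled CPM from 0 on the vertical axis, points for the 6 libraries numbered by replicate and the mean with SD beside them. In all 6 panels the Lhx6-/- points lie above the Control points, with Osr2 near 34.0 CPM against 17.5 CPM on average.

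The 8 listed targets given next had smaller fitted values than those above. The cell cycle genes Ccnd1 and Ccnd2 were at 0.10 and 0.09, Mycn at -0.22, Bmp4 at -0.03, Sox9 at 0.06 and Rasl11b at -0.16, none with an adjusted p under 0.591. Foxf1 (0.14) and Foxf2 (0.23), forkhead targets of the pathway in facial and gut mesenchyme, had edgeR adjusted p-values of 0.607 and 0.556, and the Lhx6-/- libraries all lay above the controls for Foxf1 but not for Foxf2. Foxf1 also lies within Gm20388. These 8 genes were named after their values were seen.

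**Figure D5:**
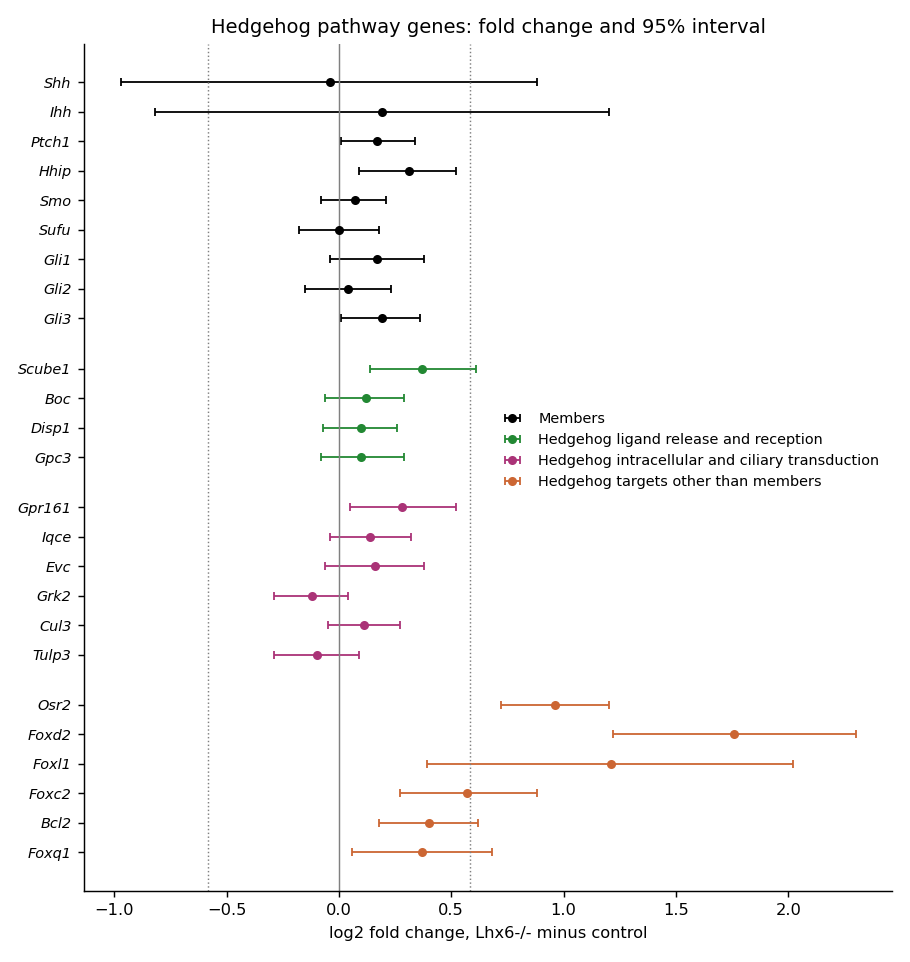
Points are log2 fold changes, Lhx6-/- minus control, with 95% intervals as bars, for the 9 members and for genes named from the 3 pathway lists, with dotted lines at 1.5-fold. The bars of Shh and Ihh reach past the dotted lines, the other 7 members lie between them, and Osr2 and Foxd2 lie wholly past the upper one.

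Of 15120 other genes with a mean of at least 1 CPM, those whose log2 levels over the 6 libraries ran most like Gli1 were Relb, Dgke, Mysm1, Siae and Tmem198b, with a root mean square difference of 0.0248 to 0.0458. Gli3 was the 17th gene in that order and Ptch1 the 54th. Ptch1 was most like Spon1, Lancl2, Ddit4l, Evi2a and Xpo1 (0.0166 to 0.0339), with Gli3 7th, Hhip 156th and Gli1 173rd. Shh was far from both, at place 14213 for Gli1 and 14135 for Ptch1. With 6 libraries and many genes, such places describe these libraries only.

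Antisense and overlapping annotations touch some members, and it is not stated whether counting used strand. Gm47200, antisense to Gli1, averaged 0.17 CPM, and Gm6556, antisense at the start of Gli3, averaged 3.19 CPM. What antisense reads add to the counts of Gli1 and Gli3 was not tested. Arhgap9 shares 62 bases with Gli1 and averaged 3.5 CPM. Ptch1 and Smo overlap A930032L01Rik (0.275 CPM) and the pseudogene Gm13717 (0.759 CPM) on their own strands. Shh is overlapped by 9530036O11Rik and Gm26894, which have no value here.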

How the data were processed

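RNA from 3 Control and 3 Lhx6-/- libraries was sequenced as single-end reads of 75 cycles. Reads were trimmed and mapped to mm10 (GRCm38) with STAR 2.6.1d by the authors, whose processing notes also name Partek. The authors deposited estimated counts per gene, without normalization. The counter's settings and the gene annotation are not given in the sources used here. Every deposited gene reaches at least 10 counts in some library. The authors' table of their own comparison (ratios, fold changes and p-values) was used only for gene names, positions and its mean column, which fixed the gene order (largest relative deviation 1.14e-07 over 23594 genes). Of these names 23061 had the same chromosome and start in GENCODE vM21, which gave merged exon lengths.

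Estimated counts were rounded and tested for genotype with edgeR 4.0.16 in R 4.3.3 (quasi-likelihood, TMM, filterByExpr, robust, two-sided), with Benjamini-Hochberg adjustment over 20114 genes. The fold and p rule is the one in the study's methods. SE is the size of the log2 fold change over the square root of F. Each library is a pool of molars, and nothing says whether pools share animals, so p-values measure only the spread between these pools. The code was tested on simulated counts.

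Genes named were the 9 members, Lhx6, the genes of each pathway list that met the rule or had an adjusted p under 0.05, up to 6 a list by the smallest p, and the 5 genes most like Gli1 and most like Ptch1. Some genes that this rule names are not reported here. Further genes in the text were picked once their values were known. The members and lists were chosen with earlier results of these data known. Of the listed names, Lrp2 and Adrbk1 (an older symbol of Grk2) have no value here. Marker lists of osteoblasts (5 genes, median -0.06), cartilage (5 tested, 0.01), Schwann cells and nerve (9, 0.20), macrophages (5, -0.05), ameloblasts (7, -0.09) and odontoblasts (4, 0.12) were read too. Alternatives were other scalings and filters, DESeq2 1.42.0, limma 3.58.1, a replicate block, an epithelial covariate and leaving out each library. The Y-linked covariate, the Shh to epithelium ratio and the search with mismatches were added after seeing the data. Promoter windows were those of RefSeq. Figures were drawn with matplotlib 3.10.9.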

Additional observations from a re-analysis of the deposited data

How the results depend on the processing

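The 9 log2 fold changes were recomputed in 17 alternative fits, and 5 members (Ptch1, Smo, Gli1, Gli3 and Hhip) kept their direction in all of them. No member had an adjusted p under 0.05 in any of them except Shh with the Y-linked covariate (-1.11). Values that changed sign were Shh with limma voom (0.12) and with the epithelial covariate (0.96), Gli2 with the epithelial covariate (-0.07), Sufu with upper-quartile (0.01) and total-count scaling (0.02), limma voom (0.004) and the Y-linked covariate (0.05), and Ihh with the Y-linked covariate (-0.29). Leaving out 1 library at a time gave -0.24 to 0.39 for Shh, -0.21 to 0.44 for Ihh, -0.02 to 0.11 for Gli2 and -0.05 to 0.04 for Sufu. Among other pathway genes, Evc (-0.03) and Tulp3 (0.06) changed sign with the epithelial covariate, and Grk2 (0.05) and Cul3 (-0.06) with the Y-linked one. With the epithelial covariate the edgeR unadjusted p rose above 0.05 for Scube1 (0.182), Gpr161 (0.119), Foxc2 (0.145) and Bcl2 (0.0648), though not for Foxq1 (0.0423). The causes were not tested.

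The number of members meeting the fold and p rule was 1 with either covariate, and the number with an adjusted p under 0.05 was 1 with the Y-linked one. Over all genes, the 81 adjusted calls became 315 with DESeq2, 14 with the epithelial and 347 with the Y-linked covariate, and 12 to 127 without 1 library, the lowest without Control 3 and the highest without Control 1. The 660 genes of the fold and p rule became 769 with the epithelial and 1243 with the Y-linked covariate. Pathway genes with an adjusted p under 0.05, 2 in the fit reported, were 4 with DESeq2, 0 with the epithelial covariate (where 4 met the fold and p rule), 3 with the Y-linked one and 1 to 2 without 1 library, and 5 met the fold and p rule with the Y-linked covariate. Foxc2 and Bcl2 were the genes added by DESeq2.

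The paper speaks of 3 pairs of samples, and which libraries would form a pair is not given. Deviations of same-numbered libraries from their group means correlated at 0.0256, -0.0288 and -0.0314. With 3 libraries a group, such values cannot settle whether libraries were paired. The deposited names also number the Lhx6-/- libraries differently from the labels used here. The replicate block used these labels. With the replicate block, 134 genes had an adjusted p under 0.05 and 652 met the fold and p rule, no member met either criterion, and Gli1 was the member that came under an unadjusted p of 0.05 (0.0402). In CPM without division by length, Ptch1 took place 2 and Gli1 place 3, Gli3 place 4 and Gli2 place 5, and Hhip place 7 and Shh place 8. The 8-letter core of the Gli motif was in 0.807% of windows. With 3 libraries a group, the 95% interval of the fold lay inside 1.5-fold for the 7 members other than the ligands. It did not for Shh, nor for Ihh, which held 28 to 82 counts a library.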
